A study of Homo sapiens with 36 samples.

Results

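FHIT, WWOX, MACROD2 and NBEA are 4 very long human genes that lie in, or have the properties of, common fragile sites. They were chosen by name and position, though earlier results of these data were known. Each was measured as the percent of its body lying inside islands, the enriched regions that a peak caller reports, in all 22 deposited island lists. The 4 genes were cut into 54 steps of 100 kb. The rest of the genome served as the comparison, as 3023 bins of 1 Mb and 30295 windows of 100 kb outside the genes.

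The lists come from chromatin immunoprecipitation followed by sequencing in K562, a human chronic myeloid leukaemia cell line, with 3 targets. MacroH2A1 is a histone H2A variant that carries a large macro domain, macroH2A1.2 is a splice isoform of it, and γH2AX is phosphorylated H2AX, a mark of DNA damage. Treated cells had received aphidicolin, a drug that blocks the polymerases copying DNA and thereby slows replication. MacroH2A1 (title set 1) and macroH2A1.2 (title set 2) each had 2 untreated and 2 aphidicolin libraries, where a title set is a group of libraries whose names share a style. γH2AX in K562 had 5 untreated and 5 aphidicolin libraries from title sets 1, 2 and 3. A line labelled 2A3, not described further in the sources used here, had 1 γH2AX library per treatment. Untreated K562 with a hairpin RNA labelled sh-RFP, and with one labelled sh-mH1.2, each had 1 macroH2A1.2 library. The aphidicolin names of set 1 carry the number 0.5 with no unit.

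Common fragile sites are regions that show gaps and breaks on metaphase chromosomes when replication is slowed, classically with low doses of aphidicolin. Many span a single very long gene that replicates late and holds few replication origins, so that replication can still be incomplete when cells enter mitosis. The series asks where macroH2A1.2 and γH2AX lie before and after such stress, and these genes are the textbook places at which it breaks chromosomes.

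Positions are on build hg19, with gene spans rounded to 1 kb. FHIT (chr3:59735001-61237000, minus strand, 1502 kb) spans the fragile site FRA3B and encodes a nucleotide hydrolase of the histidine triad family. WWOX (chr16:78133001-79247000, plus strand, 1114 kb) spans FRA16D and encodes an oxidoreductase with WW domains. MACROD2 (chr20:13976001-16034000, plus strand, 2058 kb) encodes an enzyme that removes ADP-ribose from proteins through a macro domain. NBEA (chr13:35516001-36247000, plus strand, 731 kb; FRA13A) encodes neurobeachin, a protein of membrane traffic in neurons. Exons and introns are not stated, since no annotation of this build was used here.

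The start of WWOX is shown because islands lay within 5 kb of it in 11 of 22 lists, and that of FHIT as an example of the other 3 genes, which had none within 5 kb in any list. The sequences are the 250 bases before each start, on the gene's strand, from the RefSeq promoter table of build GRCh38.p14 (WWOX chr16:78099404-78099653, FHIT chr3:61251453-61251702). Capitals mark each CG dinucleotide, which reads the same on both strands.
WWOX: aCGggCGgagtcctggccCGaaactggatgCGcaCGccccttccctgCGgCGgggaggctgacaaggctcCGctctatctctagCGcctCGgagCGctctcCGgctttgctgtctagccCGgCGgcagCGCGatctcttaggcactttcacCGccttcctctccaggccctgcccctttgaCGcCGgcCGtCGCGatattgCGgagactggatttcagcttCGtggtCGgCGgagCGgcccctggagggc
FHIT: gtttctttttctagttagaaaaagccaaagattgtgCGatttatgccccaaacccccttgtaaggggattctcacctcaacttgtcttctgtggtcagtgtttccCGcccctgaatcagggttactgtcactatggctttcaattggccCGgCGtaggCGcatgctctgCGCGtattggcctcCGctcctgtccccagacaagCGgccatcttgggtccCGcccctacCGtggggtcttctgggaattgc
The WWOX stretch held 27 CG dinucleotides and was 67.6% G or C, and 17.7% of the 35116 promoters in that table held as many. The FHIT stretch held 11, the median of the table, and was 54% G or C. All 4 genes were matched in the table by symbol. The same stretch of MACROD2, not printed, held 29 and was 73.2% G or C, with no island near its start, and that of NBEA held 11. A CG count describes these letters only.

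Island coverage of the 4 genes was low in most libraries. Of 88 pairs of a gene and a list, 51 had no island base at all (58.0%) and 73 were under 1%. In 6 pairs the gene was above the percent of the whole genome in the same list, 5 of them for WWOX and 1 for MACROD2. Low coverage was common elsewhere too: 27.1% of the 1-Mb bins outside the genes were at 0 in both untreated macroH2A1 lists, and 9.23% in all 22 lists. Islands covered 0.781% to 14.4% of the genome by list and held 2022630 to 75168077 reads. A value of 0 says that no island was called, not that the histone was missing. Input libraries were not analysed here, so DNA copy number along these genes was not measured, and its part in any value was not tested.

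**Figure D1:**
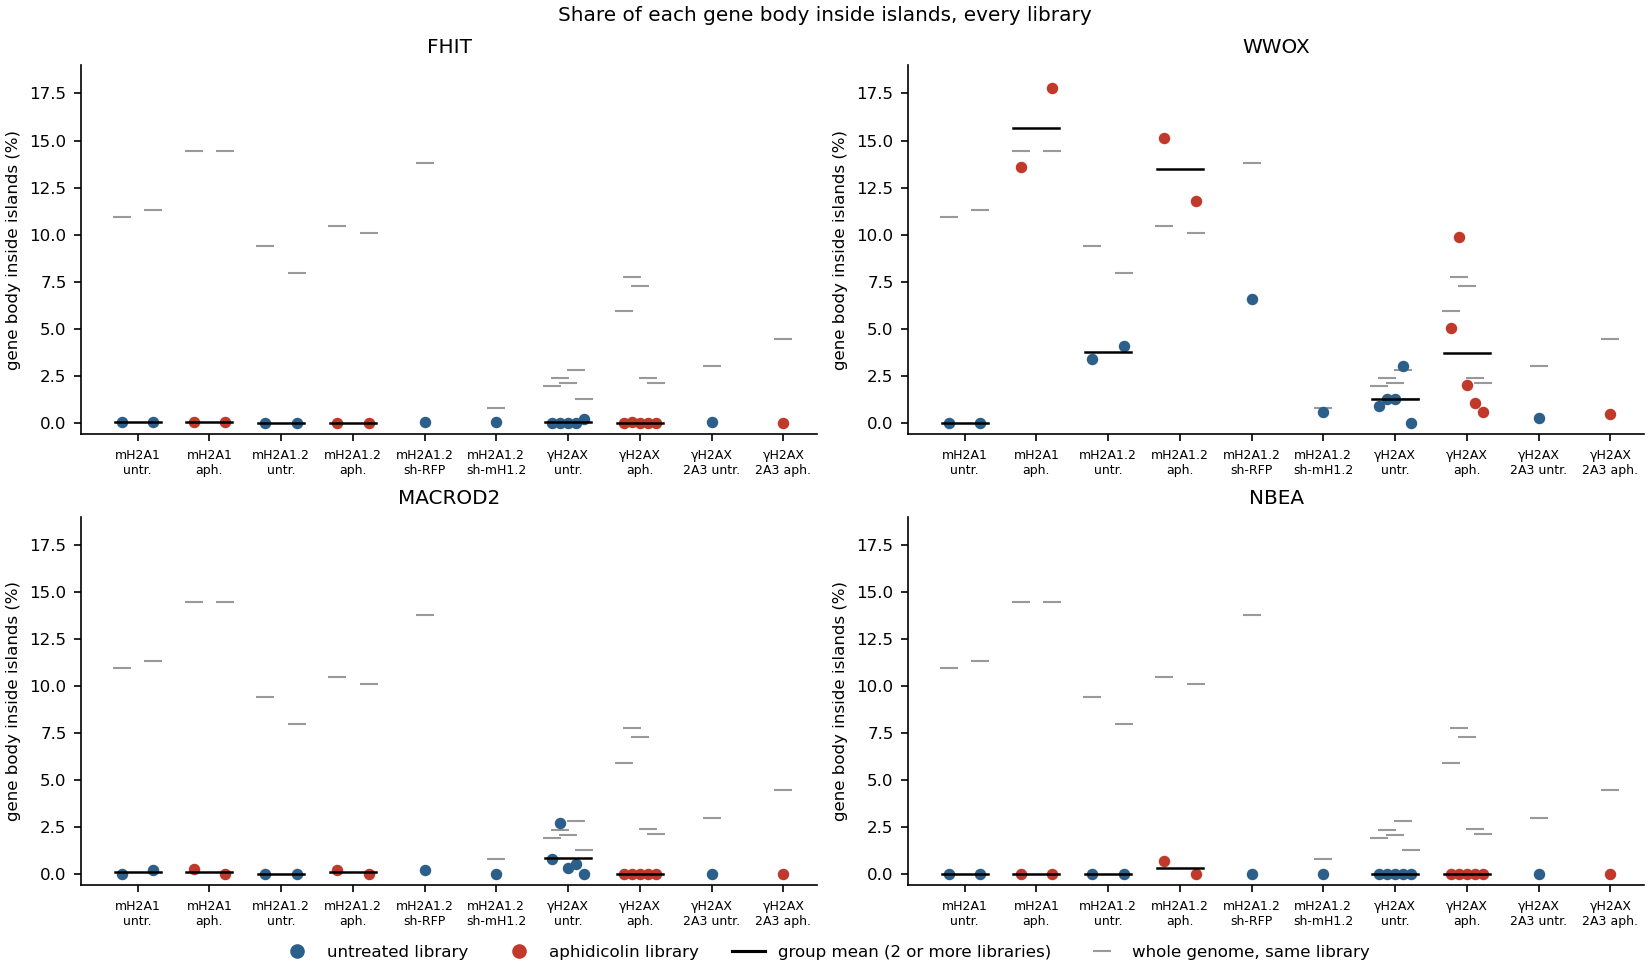
Percent of each gene body inside islands (y axis, the same scale in every panel), 1 panel per gene and 1 dot per library, grouped by target and treatment (x axis). Black lines are group means, and each grey dash is the percent of the whole genome in that library. WWOX has both macroH2A1 libraries of the aphidicolin group, 13.6% and 17.8%, above the untreated pair at 0, while FHIT and NBEA stay under 1% in every list.

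WWOX was the gene in which macroH2A rose. No macroH2A1 island lay in WWOX in either untreated library, and 13.6% and 17.8% of it was covered in the 2 aphidicolin libraries. The treated and untreated libraries did not overlap. Of all features tested, 75.4% likewise had both aphidicolin libraries above both untreated ones, and 4.08% had them below. The mean went from 0 to 15.7% ± 2.97 (SD, n = 2), a difference of 15.7 percentage points with a standard error of 1.68 (limma on the percent covered, fitted over all genes and bins, Benjamini-Hochberg adjusted p = 0.0135). With both untreated libraries at 0, WWOX passed the filter of 2 covered libraries only through the treated pair, and with no filter it was not called (adjusted p = 0.0556). Of all features 41.6% were called higher and 0.18% lower, and of the 3 genes tested WWOX was called higher and 0 lower. The difference stayed at 15.7 points without untreated replicate 1 or 2 (adjusted p = 0.082 and 0.0692) and with equal covered length in every list (0.144), fits in which 0% of all features were called. Without either aphidicolin library WWOX was covered in too few libraries to be tested. Genome-wide macroH2A1 coverage also went up, from 10.9% and 11.3% to 14.4% in both, and its part in the WWOX value was not tested.

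The isoform macroH2A1.2 rose in WWOX as well, from a level above 0. Untreated libraries covered 3.39% and 4.08% of WWOX and aphidicolin libraries 15.1% and 11.8%, again without overlap. The same held for 44.6% of all features tested, and 23.7% had both aphidicolin libraries below both untreated ones. The means were 3.73% ± 0.482 and 13.5% ± 2.36 (SD, n = 2 each), a difference of 9.73 percentage points with a standard error of 1.43 (limma, adjusted p = 0.0317). WWOX was the 1 gene of the 4 covered in enough libraries to be tested; 15.9% of all features were called higher and 5.34% lower. Leaving out any 1 of the 4 libraries ended the call, with differences of 8.06 to 11.4 points and adjusted p of 0.0530 to 0.0907. So did a replicate block (0.0856), keeping the densest 50% of islands (0.0627) and no filter (0.105). Genome-wide coverage by macroH2A1.2 went from 9.42% and 7.96% to 10.5% and 10.1%. On chromosome 16, which holds WWOX, its mean went from 13.5% to 18.2%. The part of these wider changes in the WWOX value was not tested.

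Set among the 1-Mb bins, WWOX moved up in rank for macroH2A and down for γH2AX. Its γH2AX mean lay above 71.9% of bins when untreated and above 67.8% after aphidicolin. Its macroH2A1.2 mean lay above 56.6% of bins when untreated and above 72.2% after aphidicolin, and its macroH2A1 mean after aphidicolin lay above 66.99% of bins. Whether replicates came from separate cultures is not given in the labels, so each p-value reflects the spread between libraries only, and that spread may be technical.

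The macroH2A islands of WWOX all lay toward its far end. The first 700 kb of the gene held none in any of the 10 macroH2A lists, so the last 414 kb was summed apart, a division made after the values were seen. Of this stretch, macroH2A1 covered 0% and 0% untreated and 36.6% and 47.9% after aphidicolin. MacroH2A1.2 covered 9.13% and 10.97% untreated and 40.7% and 31.7% after aphidicolin. The stretch was therefore bare in untreated macroH2A1 lists. In the untreated macroH2A1.2 lists its coverage was near that of the whole genome, 9.42% and 7.96% in the same lists. The sh-RFP macroH2A1.2 list covered 17.6% of the stretch and 13.8% of the genome.

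In 100-kb steps, the highest was step 10, 900 to 1000 kb from the start (chr16:79033001-79133000). MacroH2A1.2 covered 21.8% and 30.2% of it untreated and 61.4% and 69.2% after aphidicolin. The difference was 39.3 points with a standard error of 4.66 (limma over all steps and windows, adjusted p = 0.0212). It was the 1 step called higher of 4 tested in these genes, against 15.3% of all windows, and 0 were called lower, against 6.76%. At an unadjusted p under 0.05, 2 were higher and 0 lower, edgeR's quasi-likelihood test called 1 higher (16.1% of all windows) and 0 lower (13.7%), and DESeq2 called 3 (25%) and 0 (24.7%). The call was lost without untreated replicate 1 or either aphidicolin replicate, fits in which 0% of all windows were called.

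MacroH2A1 covered 32.6% and 94.8% of the same step 10 after aphidicolin and 0 untreated. In step 9 it covered 71.2% and 21.4%, and in step 11, the last, 41.8% and 71.9%, against 0 in both untreated lists. The 2 aphidicolin libraries thus filled different steps most. None of the 3 steps was called (limma, adjusted p 0.203, 0.178 and 0.0782 in that order), and 0 of 5 tested steps of the 4 genes were called higher, against 6.7% of windows, or lower, against 0.11%. At an unadjusted p under 0.05 limma had 1 step higher, step 11 of WWOX, and 0 lower. All 3 steps were at 0 untreated and passed the filter only through the treated pair. edgeR called 0 higher and 0 lower, against 0.11% and 0% of all windows, and DESeq2 3 and 0, against 19.1% and 21.3%.

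**Figure D2:**
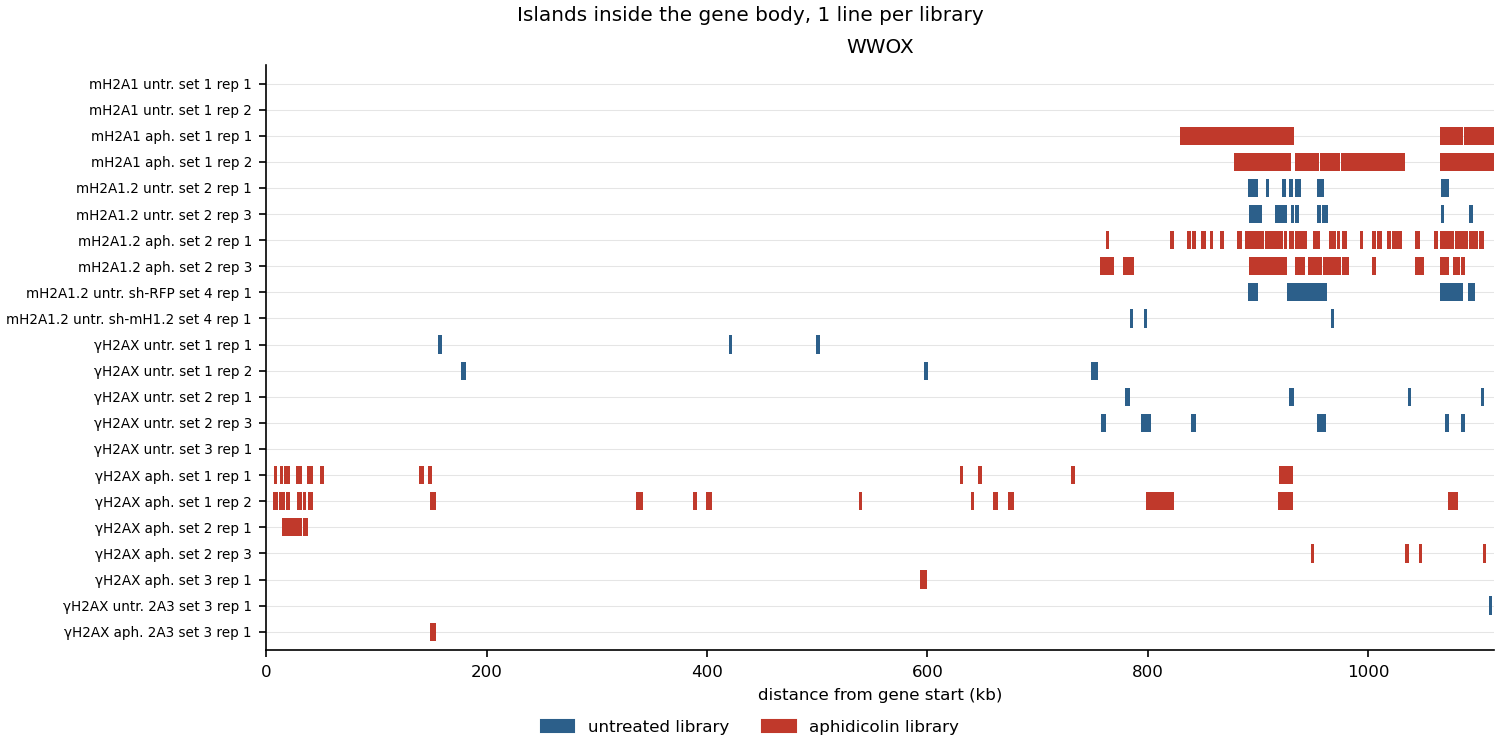
Islands in WWOX, 1 line per library, with distance from the gene start in kb on the x axis and a bar for each island, blue for untreated and red for aphidicolin libraries. MacroH2A islands lie beyond 756 kb from the start in every list that has one, as 3 and 5 islands for macroH2A1 after aphidicolin and 30 and 13 for macroH2A1.2 after aphidicolin.

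The number and length of the islands varied between title sets as well as antibodies. MacroH2A1 after aphidicolin had 3 and 5 islands in the last 414 kb, the longest of 103.8 kb and 57.6 kb. MacroH2A1.2 had 7 and 8 untreated, with median lengths of 5.2 kb and 4 kb, and 30 and 13 after aphidicolin, with medians of 4.4 kb and 8.2 kb. The sh-RFP macroH2A1.2 list had 4, the longest of 36.8 kb, nearer to the macroH2A1 lists. Reads per kb of island over the whole list were 102 and 111 in the treated macroH2A1 lists, 33.4 to 41.0 in the macroH2A1.2 lists of set 2 and 180 in the sh-RFP list, so antibody, title set and read density cannot be told apart. The island edge nearest the start lay at 828.8 kb and 878.6 kb for macroH2A1 after aphidicolin. For macroH2A1.2 it lay at 891 kb and 891.6 kb untreated and at 762.4 kb and 756.4 kb after aphidicolin. The treated macroH2A1.2 islands thus began closer to the start.

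Replicates shared only a part of what they covered in WWOX. The 2 aphidicolin macroH2A1 lists had 99.2 kb in common out of 250.4 kb in either (39.6%), and the 2 aphidicolin macroH2A1.2 lists had 89.6 kb of 210.4 kb (42.6%). Sequence covered in both aphidicolin lists and neither untreated list came to 99.2 kb for macroH2A1 and 50.2 kb for macroH2A1.2. These gains had 17.2 kb in common, 17.3% of the first and 34.3% of the second. Of the 99.2 kb gained by macroH2A1, 38.6 kb (38.9%) already lay in an untreated macroH2A1.2 island, and 81.2 kb (81.9%) lay in an island of an aphidicolin macroH2A1.2 list.

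WWOX sits between regions that macroH2A covered with or without the drug. Over the 500 kb on either side, macroH2A1 covered 49.4% ± 8.33 untreated and 69.6% ± 3.76 after aphidicolin (SD, n = 2 each). MacroH2A1.2 covered 24.6% ± 2.80 and 58.4% ± 0.537 of the same flanks. Just downstream, the next 200 kb held 66% and 74.7% macroH2A1 untreated and 92.3% and 88.9% after aphidicolin. The percent of the gene minus that of its flanks went from -49.4 ± 8.33 untreated to -53.9 ± 6.73 points after aphidicolin for macroH2A1. For macroH2A1.2 it went from -20.9 ± 2.32 to -45.0 ± 2.90 points (SD, n = 2 each), as the flanks rose more than the gene. The gene body was thus a gap in covered surroundings, and under aphidicolin more of its far side was covered. At its other side, in 9 macroH2A lists, all but the sh-mH1.2 one, islands covered 64% to 96% of the 5 kb before the start and ended 0.2 to 1.8 kb short of it, a distance limited by the rounding of the span.

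**Figure D3:**
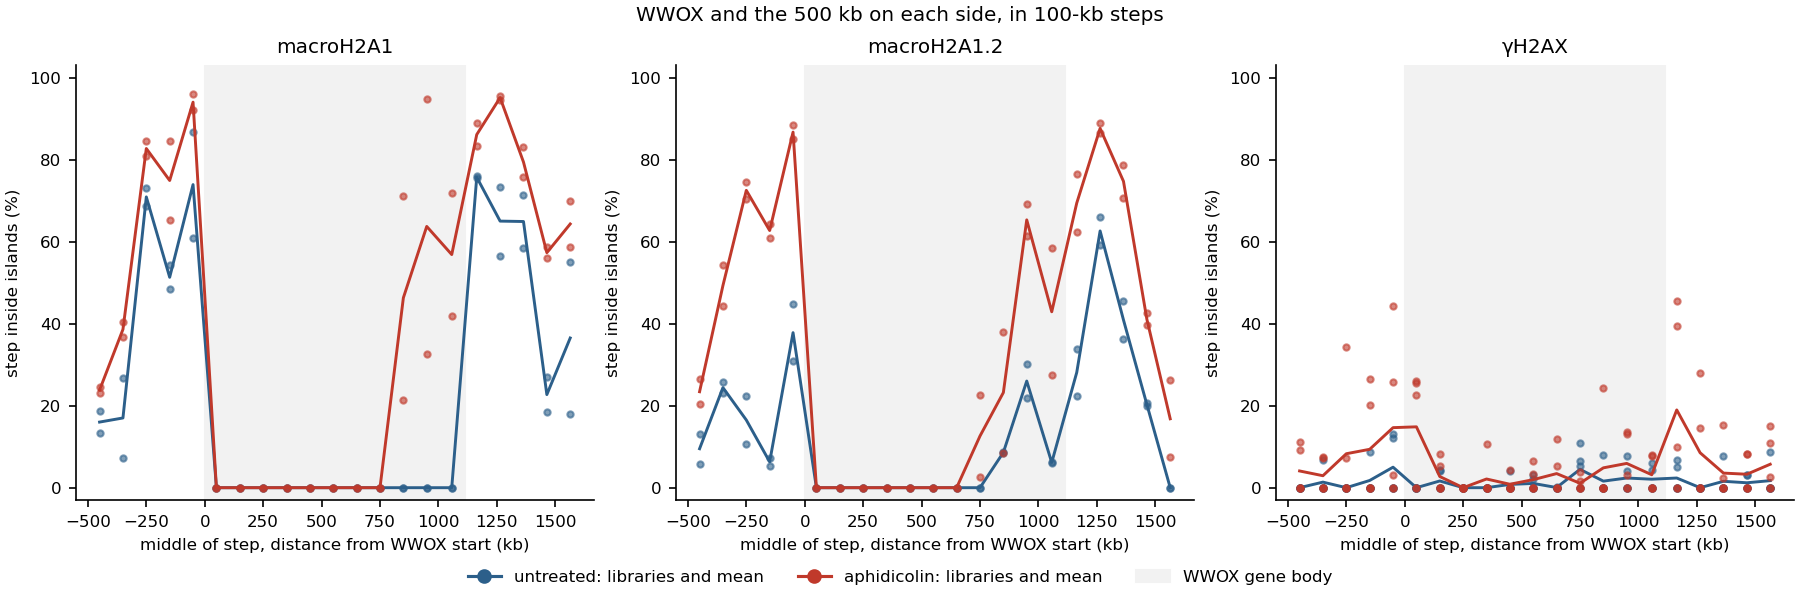
Percent of each 100-kb step inside islands (y axis) across WWOX and 500 kb to each side, against distance from the gene start in kb, in 3 panels for macroH2A1, macroH2A1.2 and γH2AX. Dots are libraries and lines group means. MacroH2A covers both sides of the gene unevenly (untreated macroH2A1.2 means of 0 to 62.6% by step) and is at 0 over its first 700 kb. From 800 kb to the end of the gene its aphidicolin lines lie above the untreated ones. Between 700 and 800 kb this holds for macroH2A1.2 only, as both macroH2A1 lines are at 0.

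None of the other 3 genes was called for macroH2A. FHIT, the classical fragile site gene, was almost bare. In macroH2A1 lists it had 0.0133% and 0.0266% untreated and 0.0266% in both aphidicolin lists, and in the 4 macroH2A1.2 lists without a hairpin it had 0. Over all 22 lists it held 9 islands, 8 of them at 1 place of 400 bp, 551 kb from the start (chr3:60685601-60686000). That place was called in all 4 macroH2A1 lists, both hairpin lists and 2 γH2AX lists, with 37 to 199 reads, and it ended at the same base in 7 of them. Libraries of all 3 antibodies thus called this place, and the cause was not tested. Together the lists left 99.8% of FHIT in no island (macroH2A1, limma adjusted p = 0.988).

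WWOX was the 1 of 3 tested genes whose aphidicolin macroH2A1 libraries both exceeded the untreated pair, against 75.4% of all features, and the share of all features was 44.6% for macroH2A1.2. MACROD2 had 0 and 0.204% macroH2A1 untreated and 0.262% and 0 after aphidicolin (adjusted p = 0.962). NBEA had 1 island in all 22 lists, of 5.0 kb, in macroH2A1.2 aphidicolin replicate 1, and could be tested for no target.

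Over the genes, the median change in macroH2A1 was 0.0292 points for the 3 tested and 2.69 for all features. For macroH2A1.2 WWOX alone was tested, and the median of all features was 0.635 points. The genes left out of a test were those covered in fewer than 2 libraries of it, so these values do not speak for all 4. The chromosomes carrying the genes differed in macroH2A1 too: untreated, the mean was 1.47% on chromosome 13, which holds NBEA, and 19.4% on chromosome 16, which holds WWOX.

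**Figure D4:**
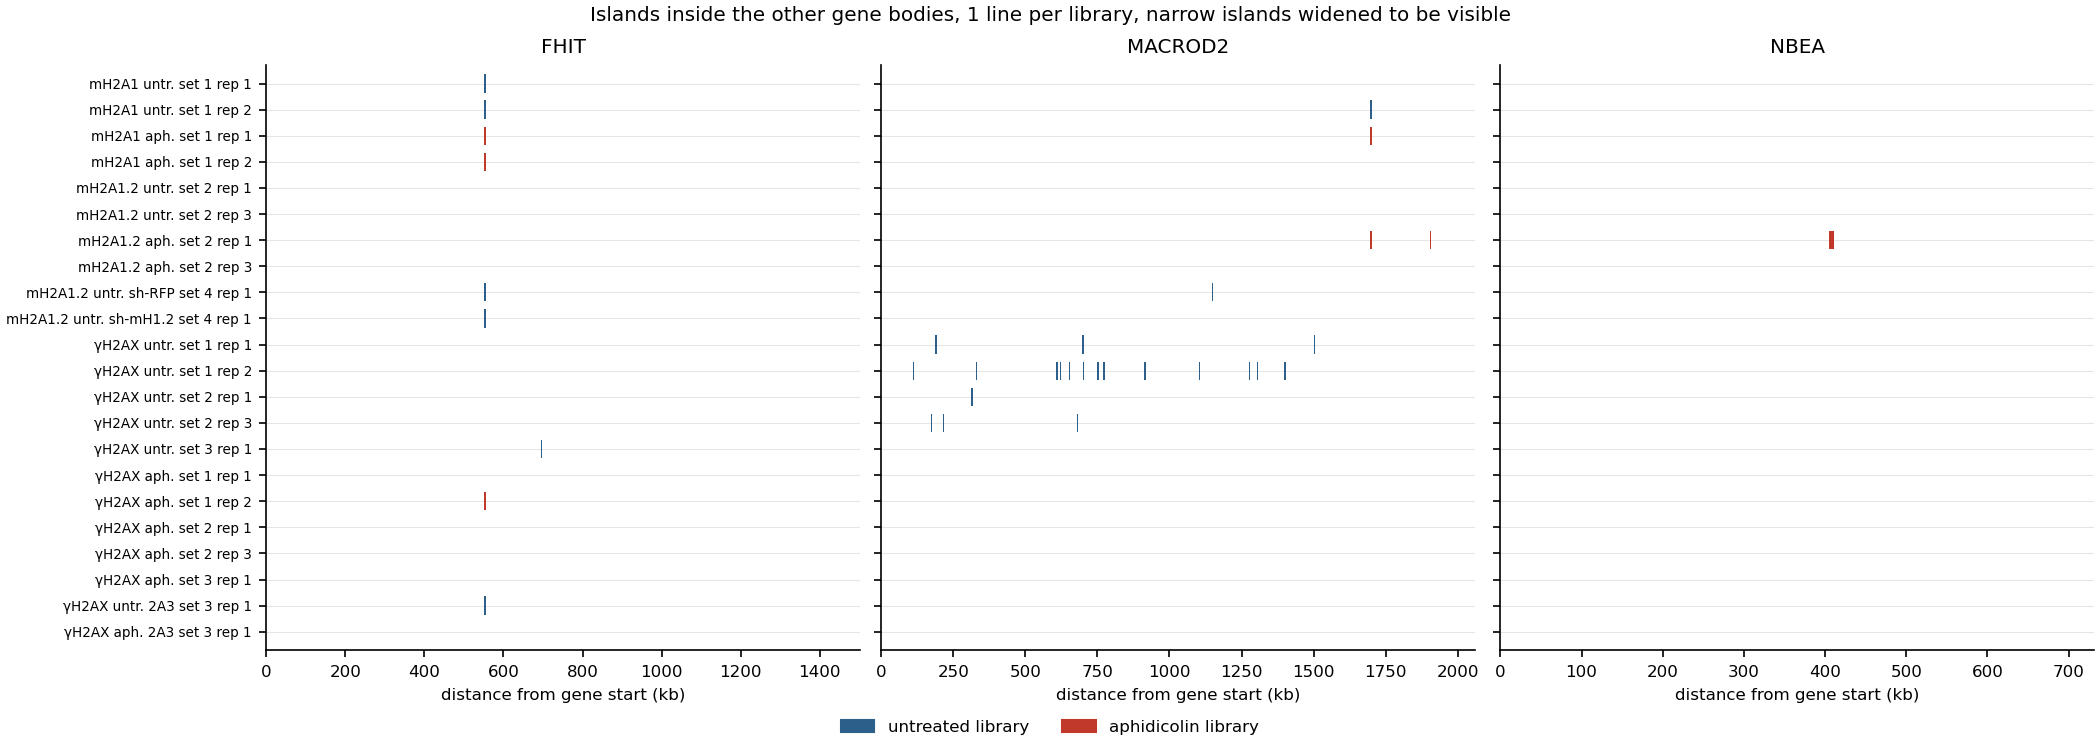
Islands in FHIT, MACROD2 and NBEA, 1 panel per gene and 1 line per library, with distance from the gene start in kb on the x axis and bars in blue for untreated and red for aphidicolin libraries; narrow islands are drawn wider than they are. Of the 9 FHIT islands 8 line up 551 kb from the start, and γH2AX islands in MACROD2 are scattered over untreated lists.

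With the hairpin labelled sh-mH1.2, 2 of the 3 genes that had any macroH2A1.2 with sh-RFP had less. WWOX had 6.55% in the sh-RFP list and 0.575% in the sh-mH1.2 list. MACROD2 had 0.194% and 0, while FHIT had 0.0266% in both, at its 400 bp place. In the last 414 kb of WWOX the values were 17.6% and 1.55%. Over the whole genome the values were 13.8% and 0.781%, so coverage outside these genes was lower too. There was 1 library for each hairpin, so these differences have no replicate check and no test.

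γH2AX, the damage mark, was called by limma in none of the 4 genes as a whole. WWOX had 0.898%, 1.26%, 1.27%, 3.0% and 0% in the 5 untreated lists and 5.03%, 9.87%, 2.03%, 1.06% and 0.575% in the aphidicolin lists, both in the order set 1, set 2, set 3. The highest values are the 2 aphidicolin libraries of set 1, and the groups overlap. The means were 1.29% ± 1.09 and 3.71% ± 3.85 (SD, n = 5 each; limma with title set as a term, adjusted p = 0.225). The difference of 2.43 points was 1.07 without aphidicolin set 1 replicate 2, 1.28 with the densest 50% of islands and 0.715 with equal covered length. The difference was 6.37 points in set 1, -0.592 in set 2 and 0.575 in set 3.

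MACROD2 had γH2AX in untreated lists only. Its values were 0.797%, 2.69%, 0.321%, 0.554% and 0 untreated, and 0 in all 5 aphidicolin lists and in both 2A3 lists. The mean of 0.873% ± 1.06 against 0 was not called by limma (adjusted p = 0.202), and MACROD2 passed the filter only through the untreated lists. The 20 untreated islands were 3.2 kb to 6.6 kb long and were spread from 109 kb to 1505 kb of the gene. Only 3 kb of the 86.8 kb they covered was common to 2 lists, so the lists did not mark the same places.

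By limma, 0 of the 3 genes tested for γH2AX were called higher, against 0.0457% of all features, and 0 lower, against 0%. At an unadjusted p under 0.05 there were 0 higher and 0 lower, and edgeR and DESeq2 on reads in islands each called 0 higher and 1 lower. That 1 was MACROD2, set against lists at 0, and edgeR called 12.9% of all features higher and 10.8% lower and DESeq2 32.9% and 26.9%. Exact permutation of the treatment labels within title sets ran over 72 assignments. Its two-sided p was 0.222 for WWOX, 0.0556 for MACROD2 and 1 for FHIT. The smallest possible p is 0.0278 only without ties. Lists tied at 0 raised it to the 0.0556 found for MACROD2, and above 0.05 for FHIT too. Neither gene could therefore have passed 0.05 in this test. The median difference of the 3 was -0.0293 points, and that of all features 0.998. FHIT had γH2AX in 1 untreated and 1 aphidicolin list. NBEA had 0 γH2AX in all 12 lists.

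**Figure D5:**
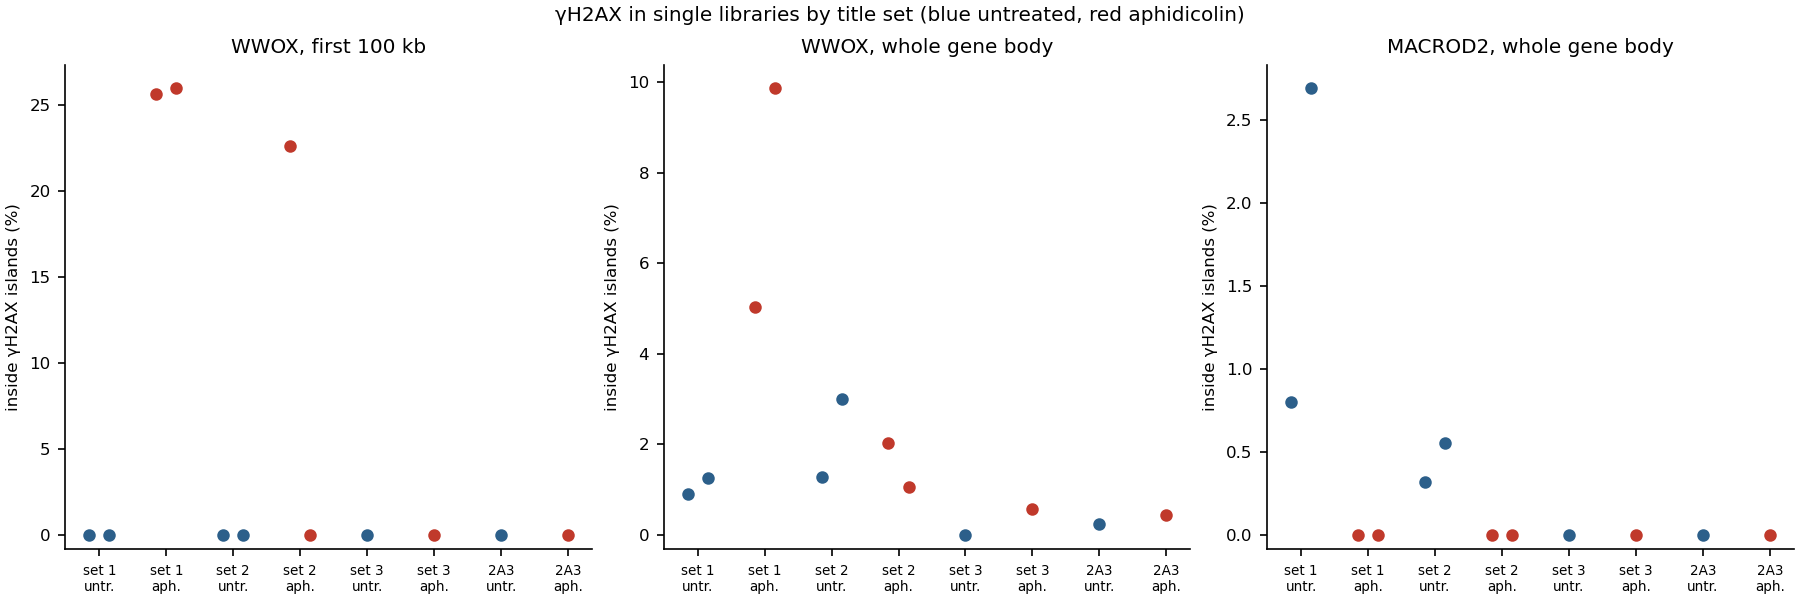
γH2AX percent covered (y axis) in the first 100 kb of WWOX, the whole of WWOX and the whole of MACROD2, 1 dot per library, untreated and aphidicolin side by side for title sets 1, 2 and 3 and line 2A3 (x axis). In the first 100 kb of WWOX 3 aphidicolin libraries of sets 1 and 2 lie between 22.6% and 26.0% and the other libraries at 0, and MACROD2 is at 0 in every aphidicolin list.

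Within WWOX, γH2AX islands of 3 aphidicolin lists lay together near the start. The first 100 kb of WWOX (chr16:78133001-78233000) was at 0 in all 5 untreated lists and had 25.6%, 26.0%, 22.6%, 0 and 0 in the aphidicolin lists. Both set 1 libraries and replicate 1 of set 2 were high, and the other 2 held none. The mean of 14.8% ± 13.6 was not called (limma, adjusted p = 0.0924). These islands lay 6 to 51.8 kb from the start, on the far side of the start from the stretch printed above, and 10.8 kb within the first 50 kb was common to the 3 lists. No macroH2A list had an island in this step, which passed the filter only through the treated lists. Both set 1 aphidicolin libraries also shared a place in step 10, at 919.2 to 932.2 kb and 918.6 to 932.2 kb, overlapping macroH2A1 islands of the same sample names. This place was not confined to treated lists. Untreated γH2AX set 2 replicate 1 had an island at 928.4 to 932.4 kb. The untreated macroH2A1.2 lists had islands at 928.6 to 932.2 kb and 930.2 to 932.6 kb.

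Over the 14 γH2AX steps tested in these genes, limma called 0 higher, against 3.82% of windows, and 0 lower, against 1.37%. At an unadjusted p under 0.05 there was 1 higher, the first of WWOX, and 0 lower. Of these steps edgeR called 0 higher and 1 lower, against 28.1% and 12.7% of all windows, and DESeq2 1 and 3, against 44.6% and 21.3%. Without aphidicolin set 2 replicate 3, limma called 1 higher, against 16.8%. That library covered 2.40% of the genome, against 5.92%, 7.75%, 7.27% and 2.13% in the others, and its part in these values was not tested.

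Part of the γH2AX in WWOX lay inside macroH2A. For each γH2AX list of sets 1 and 2, island bases were compared with the macroH2A list of the same sample name. In WWOX after aphidicolin, 23.2%, 18.9%, 0% and 49.2% of 56, 110, 22.6 and 11.8 kb of γH2AX lay inside macroH2A. The same macroH2A lists covered 13.6%, 17.8%, 15.1% and 11.8% of the gene, and the shares over the whole genome were 62.4%, 62.4%, 40.4% and 50.2%. Untreated, the WWOX shares were 0%, 0%, 25.4% and 19.8%, of 10, 14, 14.2 and 33.4 kb. The macroH2A lists then covered 0, 0, 3.39% and 4.08% of the gene, and the whole-genome shares were 11.1%, 5.36%, 12.1% and 8.70%. In MACROD2 none of the γH2AX in untreated lists, 16.4, 55.4, 6.6 and 11.4 kb, lay inside macroH2A.

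WWOX also stood apart in its pattern over the lists. With the genome percent of each list subtracted, Spearman's rho over the 22 lists was 0.12 to 0.126 between WWOX and each other gene and 0.979 to 0.999 among the other 3. The high values largely follow from the subtraction, since genes near 0 in every list then vary as the genome percent does, and all points share their libraries. Over all 22 lists, 60.5% of WWOX lay in no island, against 95.2% of MACROD2, 99.3% of NBEA and 99.8% of FHIT.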

How the data were processed

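The authors deposited 1 island list per library, each island with its position and a whole-number count of reads, left unscaled. The names Bowtie2 2.1.0, SICER 1.1, deepTools and hg19 appear in the submitters' processing notes, with neither role nor order. The authors' list names give the caller's settings: 200 bp windows, 600 bp gaps and a false discovery rate of 0.01. The 14 input libraries, of 36 samples, were not analysed here. Nuclei were crosslinked, digested with micrococcal nuclease and briefly sonicated, per the labels' protocols.

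Groups came from the titles. Percent covered was computed on the 200 bp grid, on chromosomes 1 to 22 and X, from the deposited edges. It was fitted with limma 3.58.1 (R 4.3.3) over all genes and 1-Mb bins, or all steps and 100-kb windows, covered in at least 2 libraries of the fit, with Benjamini-Hochberg adjustment over the whole table at 0.05. Where 1 group had both libraries at 0, the error came from the spread of the other group and the spread shared over the table. Identical zeros add no spread of their own, which makes the error smaller. Alternatives were edgeR 4.0.16 and DESeq2 1.42.0 on reads in islands, equal covered length, longer or denser islands, an arcsine scale, a mean trend, no filter, another flank and leaving out each library. A last piece of a gene under 50 kb was joined to the step before it. The fit was tested on simulated data. Reads sequenced per library are unknown here, and intervals from counts are not given for covered lengths.

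The 4 genes are named in every list. Other genes of the same group are not reported here. Steps are named where they passed the threshold or were the highest of their gene and group; others were chosen after their values were seen. The genes and lists were chosen with earlier results of these data known.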

Additional observations from a re-analysis of the deposited data

Results flagged for a closer look

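FHIT had γH2AX in 1 list of each treatment group. In the aphidicolin group, set 1 replicate 2 had 0.0266% and the other 4 libraries 0. In the untreated group, set 3 replicate 1 had 0.173% and the other 4 libraries 0. Each lies farther from its group than Dixon's 95% critical value allows. With the other 4 libraries at 0, any value above 0 would do so, however small. The first is the 400 bp place that 8 lists share, and the second is 1 island of 2.6 kb, 694.6 kb from the gene start. Chance alone marks about 1 in 20 groups only where values follow a normal distribution, which lists at 0 do not. In all, 8 groups of 5 libraries were searched.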

How the results depend on the processing

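The replicate numbers were not used to pair the libraries in the main fit. Over 100-kb windows, deviations of same-numbered treated and untreated lists correlated at 0.0107 for macroH2A1 and -0.0894 for macroH2A1.2. In γH2AX sets 1 and 2 the values were -0.071 and 0.153. With 2 pairs in each, these values cannot show whether the libraries were paired. With a replicate block, 1 gene was called higher for macroH2A1 and 0 for macroH2A1.2 (WWOX, adjusted p = 0.0856), and 1 macroH2A1.2 step was.

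Genes called higher for macroH2A1, 1 in the report, came to 0 with equal covered length (0% of all features called) or no filter (12.8%) and to 0 to 0 with 1 library left out (0% without an untreated library); the WWOX difference stayed at 15.7 points in every such fit that tested it. For macroH2A1.2, 1 in the report, they came to 0 with the densest 50% of islands (8.3% of all features) or no filter (3.93%) and to 0 to 0 with 1 library left out. Steps called higher for macroH2A1 came to 1 on the arcsine scale (9.4% of all windows) and 3 by DESeq2 (19.1%). For macroH2A1.2 they came to 0 with no filter, 3 by DESeq2 and 0 to 1 with 1 library left out. For γH2AX, 1 gene was lower (MACROD2) by edgeR (10.8% of all features) and by DESeq2 (26.9%). γH2AX steps called higher came to 1 on the arcsine scale (30.4% of all windows) and 1 by DESeq2 (44.6%). They came to 0 to 1 with 1 library left out, the 1 in a fit that called 16.8%. Steps called lower came to 1 by edgeR (12.7%) and 3 by DESeq2 (21.3%). The causes were not tested.

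No WWOX difference in macroH2A reversed. Small differences did: for γH2AX in FHIT, edgeR gave 3.38 and DESeq2 1.12 (log2), and leaving out 1 library gave -0.0358 to 0.00666 points, the latter without aphidicolin set 3 replicate 1. For macroH2A1, edgeR and DESeq2 gave log2 values of -0.33 and -0.39 in FHIT and -0.038 and -0.092 in MACROD2. Leaving out 1 library gave -0.0729 to 0.160 points in MACROD2, lowest without untreated replicate 1. With flanks of 1 Mb in place of 500 kb the difference between gene and flank changed sign for NBEA with macroH2A1.2 after aphidicolin, from -0.048 to 0.147 points, and for no other gene and group. Depth limits every 0 here, which says only that no island was called at that library's depth.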
